A study of Drosophila melanogaster with 3 samples.

Results

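The 8 Drosophila melanogaster genes sbb, CHES-1-like, CG1677, Tlk, rdx, CG32264, CG12535 and Ten-a were examined for peaks of ind-eGFP along their whole length. They are 8 of 13968 protein-coding genes of the Ensembl BDGP6 annotation. They were chosen by the number of optimal peak summits outside promoters, so their high counts are a description and were not tested. Binding was measured by ChIP-seq, in which chromatin bound to a protein is pulled down and sequenced, in whole embryos of mixed sex, 0 to 16 h old. All samples came from a transgenic line that stably expressed ind with GFP (called eGFP in another label) at its C-terminus, and chromatin was pulled down with an antibody against GFP. The 3 samples form 1 group of 3 biological replicates from separate biosamples, with no other genotype, treatment or age beside them. The chromatin came from whole embryos, so the cells that carry a given peak cannot be told.

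The gene ind (intermediate neuroblasts defective) encodes a homeodomain transcription factor of the middle column of the embryonic nerve cord primordium. Homeodomain proteins often recognise short A+T-rich sites around a TAAT core. Long genes in the fly commonly carry enhancers in their introns, and a large intron can also hold whole smaller genes with regulatory DNA of their own.

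A summit is the position of the highest signal within a peak, given 1-based in build dm6. The authors' optimal list, made from peaks that kept their rank between replicates, held 5809 summits. The relaxed lists of replicates 1, 2 and 3 held 30000, 27570 and 25725 peaks, and the strongest 5809 of each were used for counts. Read depth is unknown for all lists. A relative signal is the authors' signal of a peak divided by the median of its list, so a value of 1 is a typical optimal peak. In a replicate, the nearest peak within 200 bp was used, scaled by the median signal of all peaks so matched. Promoters extended 500 bp to either side of an annotated transcription start of any gene.

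The following windows show the DNA under the strongest summit outside promoters in 7 of the genes. Each is 201 bp of the plus strand of the dm6 reference sequence with the summit in its middle. No window overlaps an annotated exon. Capitals mark TAATTA, a homeodomain core, and CAGTG on either strand (CACTG when read on the plus strand), a 5-mer followed further on.
Tlk (chrX:3742128-3742328): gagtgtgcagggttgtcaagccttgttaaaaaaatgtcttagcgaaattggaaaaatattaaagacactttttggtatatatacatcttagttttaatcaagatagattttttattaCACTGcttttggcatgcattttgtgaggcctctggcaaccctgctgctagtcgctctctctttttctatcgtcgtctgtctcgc
CHES-1-like (chrX:7706911-7707111): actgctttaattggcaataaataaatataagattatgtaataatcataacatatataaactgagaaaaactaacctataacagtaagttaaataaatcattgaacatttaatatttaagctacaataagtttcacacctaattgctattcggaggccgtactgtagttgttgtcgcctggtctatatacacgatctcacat
rdx (chr3R:14012645-14012845): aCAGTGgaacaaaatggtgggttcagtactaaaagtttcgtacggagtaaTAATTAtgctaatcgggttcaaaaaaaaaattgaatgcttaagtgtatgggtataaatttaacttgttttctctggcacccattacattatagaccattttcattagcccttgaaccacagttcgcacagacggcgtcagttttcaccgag
CG32264 (chr3L:3785100-3785300): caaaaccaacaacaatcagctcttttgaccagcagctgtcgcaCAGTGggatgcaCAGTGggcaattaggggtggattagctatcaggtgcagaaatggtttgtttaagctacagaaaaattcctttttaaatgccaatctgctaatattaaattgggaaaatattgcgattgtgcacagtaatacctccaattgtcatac
Ten-a (chrX:12202302-12202502): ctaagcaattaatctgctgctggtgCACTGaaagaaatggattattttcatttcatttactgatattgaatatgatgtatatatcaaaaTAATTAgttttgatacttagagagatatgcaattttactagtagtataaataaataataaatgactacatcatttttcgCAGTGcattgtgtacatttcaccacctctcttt
CG1677, in Dok (chrX:7324909-7325109): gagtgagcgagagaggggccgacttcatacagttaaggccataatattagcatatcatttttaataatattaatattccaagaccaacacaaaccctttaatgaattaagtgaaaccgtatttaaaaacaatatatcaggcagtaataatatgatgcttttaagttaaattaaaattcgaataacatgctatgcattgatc
CG12535 (chrX:3425071-3425271): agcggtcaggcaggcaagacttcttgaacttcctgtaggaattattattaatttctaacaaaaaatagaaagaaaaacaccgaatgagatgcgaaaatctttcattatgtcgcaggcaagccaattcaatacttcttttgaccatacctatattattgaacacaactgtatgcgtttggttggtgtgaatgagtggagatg
The A+T share of these windows ran from 60.2% in CG32264 to 72.1% in Ten-a. The CAGTG 5-mer was present in the windows of Tlk, rdx, CG32264 and Ten-a. TAATTA was present in those of rdx and Ten-a. The windows of CHES-1-like, CG1677 and CG12535 held neither of these words.

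The 8 genes held 95 optimal summits, of which 88 lay in introns and 7 at promoters. None lay in coding sequence or in an untranslated region. Such summits were rare in the whole list too. Of its 5809 summits, 11 lay in coding sequence, 22 in a 5′ and 54 in a 3′ untranslated region. Outside promoters lay 92.6% of the summits of the 8 genes, against 51.9% of the whole optimal list, a share that the choice of the genes favours. In replicates 1, 2 and 3 the share in the 8 genes was 86.5%, 92.7% and 91%. Together the genes cover 809.8 kb, or 0.589% of the chromosome arms, and they held 4.09% of all 2150 intron summits. Their density was 0.117 summits per kb, which is 1 summit in 8.52 kb. The replicates held 89, 96 and 100 summits in the genes, or 95 ± 5.57 (SD, n = 3). The 3 replicate lists filled these genes to a similar degree. The background is that 13.8% of all protein-coding genes held at least 1 optimal summit in the body.

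CG1677 held the most summits among the 8 genes. It had 19 in the optimal list and 18, 22 and 21 in replicates 1, 2 and 3. The gene sbb had 14 in the optimal list and 13 in each replicate, but these were not all the same sites, since 9 of the 14 were found in all 3 replicates. Without replicate 3, 9 of the 14 were found in both others, and without replicate 1 it was 12. CHES-1-like followed with 12 optimal summits and replicate counts of 10, 13 and 12. Ten-a, rdx and Tlk came next in the optimal list, and the order from CHES-1-like to Tlk does not stand out from the spread of the replicates. Ten-a had 11 optimal summits and replicate counts of 8, 9 and 11, and rdx had 11 with 10, 10 and 11. Tlk had 10 optimal summits and 12, 10 and 13 in the replicates. CG32264 and CG12535 had 9 each, with replicate counts of 9, 8 and 11 for CG32264 and of 9, 11 and 8 for CG12535. CG1677 stood above every other gene of the 8 in each replicate, and the counts of the 6 genes other than CG1677 and sbb overlapped. CHES-1-like and Tlk had the same mean over the replicates, 11.7 ± 1.53 (SD, n = 3), and both reached the 13 of sbb in 1 replicate. In the pooled list at a −log10 q-value of at least 2, CG1677 had 21 summits, Ten-a 20 and sbb 19, so the lead of CG1677 was narrow there.

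**Figure D1:**
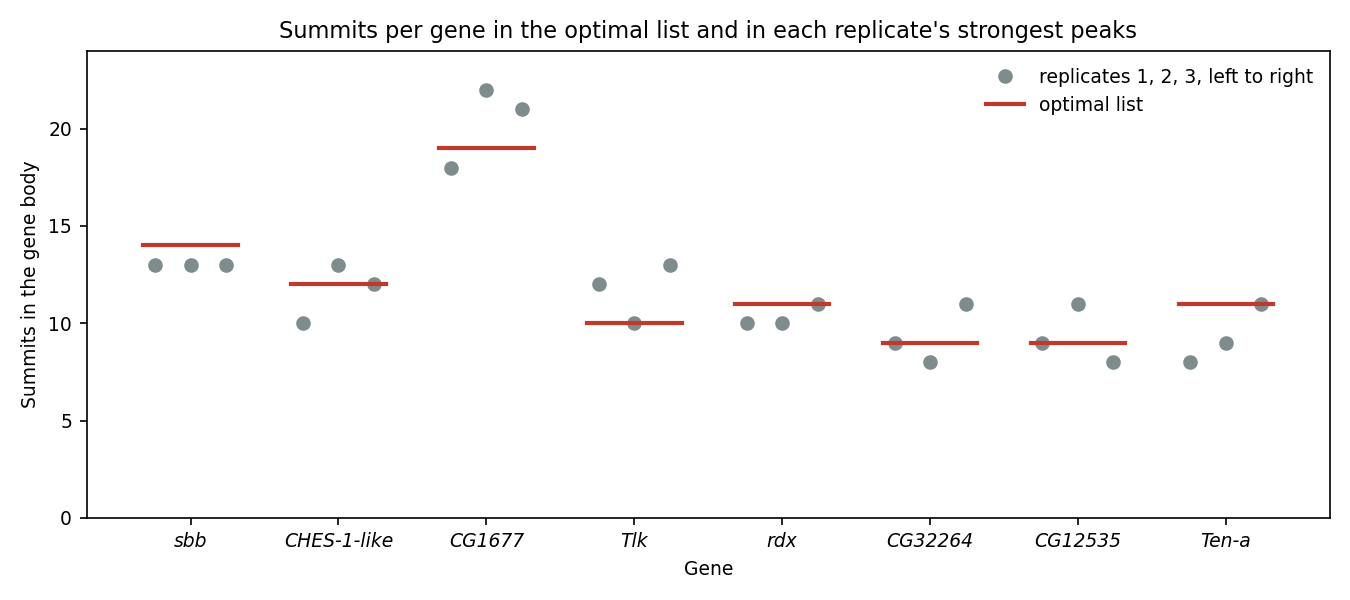
Number of summits in each gene body (vertical axis) for the 8 genes (horizontal axis). Red lines give the optimal list and grey points the strongest 5809 peaks of replicates 1, 2 and 3 from left to right; CG1677 lies between 18 and 22 in every replicate, and the lowest replicate value is 8.

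The lowest count outside promoters among the 8 genes was 9, in CG32264 and CG12535. That count or more was reached by 15 genes, which is 0.107% of all protein-coding genes. Of the 751 genes at least as long as CHES-1-like, the shortest of the 8, it was 2%. The other 7 genes at or above 9 were kirre with 19, shn with 14, Raf and ush with 11 each, Hr4 with 10, and mam and shep with 9 each. These are genes with the most similar pattern, judged by optimal summits outside promoters alone. Among them, kirre encodes an adhesion protein of fusing myoblasts, shn a zinc finger factor of Dpp signalling, ush a cofactor of GATA factors and mam a coactivator of Notch. Just below the lowest count, 8 genes held 8 summits outside promoters (CG42258, tara, tou, Tet, fz, Rbfox1, hth and SKIP). The X chromosome carried 5 of the 8 genes, namely CHES-1-like, CG1677, Tlk, CG12535 and Ten-a. It carried 8 of the 15 genes at or above 9, against 18.1% of the 751 long genes and 15.7% of all protein-coding genes. Long X genes outside the 8 also held denser summits. Their median was 0.0271 summits per kb over 131 genes, against 0.0182 over 612 long autosomal genes.

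Most other genes of such length held far fewer summits, a contrast that the choice of the 8 genes by their counts favours. The other 743 genes at least as long as CHES-1-like had a median of 1 summit and 0.0189 summits per kb, and 338 of the 751 had none outside promoters. The median over the 8 genes was 11 summits and 0.150 summits per kb. The gene closest in length to each of the 8 had few or none. Beside CG1677 (124.7 kb, 19 summits) stood dpr21 (124.5 kb) with 0. Beside sbb (79.1 kb, 14 summits) stood pros (79.1 kb) with 1. Beside Ten-a (291.5 kb, 11 summits) stood bru3 (281.5 kb) with 0. The closest to CHES-1-like and Tlk, which were Tusp and Ddr, held 2 each, those to rdx and CG12535, SK and tinc, held 1 each, and that to CG32264, sif, held 0. Density varied within the 8 genes as well. CHES-1-like, at 27.05 kb, had 0.444 summits per kb. Ten-a, the seventh longest gene of the annotation, had 0.0377 per kb.

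**Figure D2:**
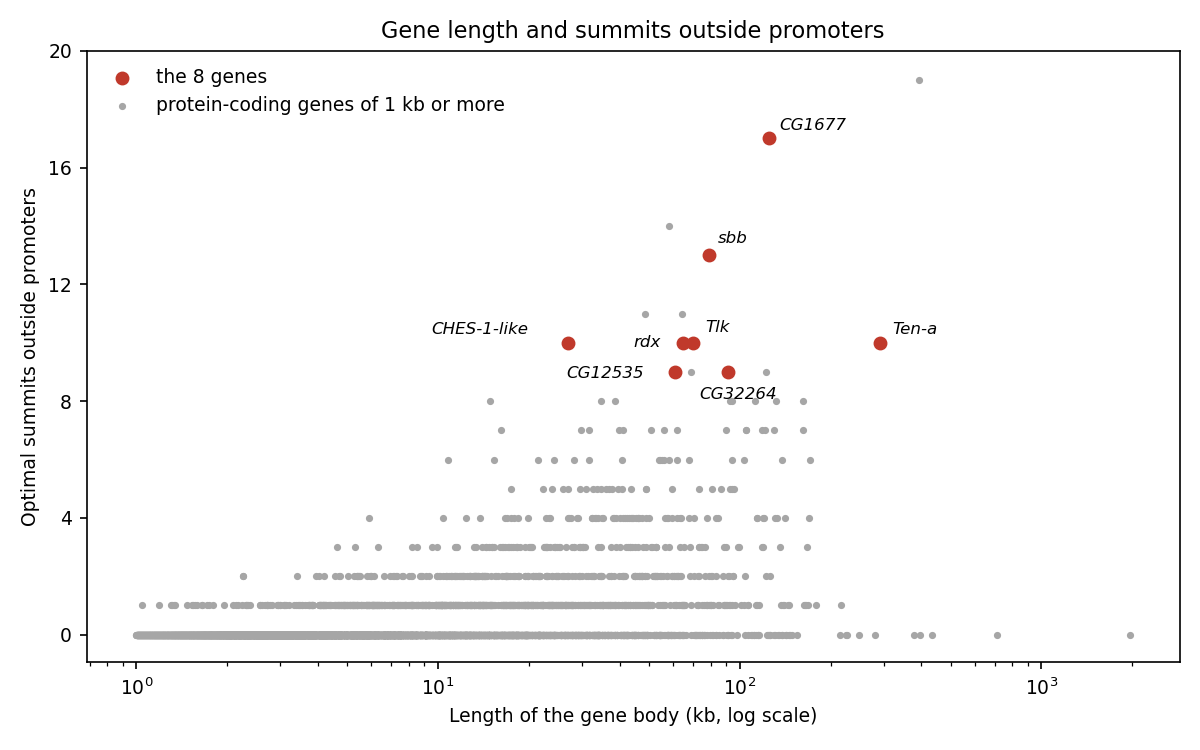
Optimal summits outside promoters in the gene body (vertical axis) against gene length in kb on a log scale (horizontal axis), 1 point per protein-coding gene of 1 kb or more. The 8 genes, in red, lie between 9 and 17, while most grey points of similar length lie near the median of 1.

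The gene maps place every summit along its gene, and positions are given in dm6. Genes whose products act on transcription or chromatin come first here.

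The gene sbb (scribbler, also brakeless) encodes a nuclear corepressor and covers chr2R:18278198-18357296 on the minus strand. Of its 14 summits, 12 lay in a single stretch of 49.4 kb without exons, between its first exon and the next. Its strongest summit, 18.8 kb from the 5′ end of the gene, had relative signals of 2.80, 2.15 and 2.62 in replicates 1, 2 and 3 and 2.49 in the optimal list. The replicates were close, and all 3 held it. The summit nearest to the gene's start, 3.09 kb into the gene, was uneven, with 1.31 in replicate 1 and 0.444 and 0.412 in replicates 2 and 3. That replicate alone had it among its strongest 5809 peaks. No summit lay within 500 bp of either start of sbb. Its 1 promoter summit, at position 18292696, was at the start of CG14502, a gene lying inside it, with a relative signal of 0.624. The 3 strongest outside promoters were at positions 18338503, 18333388 and 18335259, the last 2 with 2.13 and 1.89 in the optimal list.

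CHES-1-like encodes a forkhead protein related to the human protein CHES1 and covers chrX:7682338-7709385 on the minus strand. It had the densest summits of the 8 genes, 8 of its 12 within 10 kb. Its strongest summit lay 2.37 kb into the gene, with relative signals of 4.83, 5.55 and 6.64 in replicates 1, 2 and 3 and 5.89 in the optimal list. The nearest start there was that of a non-coding gene, lncRNA:CR43287, 764 bp away. The next strongest, 8.97 kb into the gene, had 4.44, 4.97 and 5.03 in the replicates. Both stood above the list median in every replicate. Summits also lay at 2 of the gene's 4 starts, with optimal relative signals of 3.21 and 3.41. All 12 lay in the upstream 17.8 kb of the gene, and none in the remaining part, where most of the exon sequence stands. Its 3 strongest summits outside promoters were at chromosome positions 7707011, 7700410 and 7705632, the third with 3.33 in the optimal list, and its strongest promoter summit was at 7697089.

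Tlk, the fly Tousled-like kinase, which acts in chromatin assembly, covers chrX:3720007-3789770 on the plus strand. It held the strongest summit of all 95, at 22.2 kb from its 5′ end. That summit had relative signals of 7.05, 8.20 and 9.51 in replicates 1, 2 and 3, or 8.26 ± 1.23 (SD, n = 3), and ranked 49 of 5809 in the optimal list. It lay 2331 bp from the nearest start, which was one of Tlk itself. It belonged to a group of 6 summits within 10 kb. None of the 8 starts of Tlk had a summit within 500 bp, although the nearest start of all 10 summits belonged to Tlk. Its longest stretch without exons, 15.0 kb, held none. The strongest summit was at position 3742228, and the next ones were at 3774448 and 3750718, with 2.80 and 2.65 in the optimal list.

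The gene rdx (roadkill) encodes a BTB protein that links the Hedgehog effector Ci to the Cullin-3 ubiquitin ligase. It covers chr3R:13967061-14032057 on the minus strand, and 10 of its 11 summits lay in a stretch of 40.3 kb without exons. The strongest, 19.3 kb from its 5′ end and 13217 bp from any start, had relative signals of 3.80, 3.98 and 4.55 in replicates 1, 2 and 3. A summit 326 bp upstream of a downstream start of rdx had 3.63, 4.14 and 3.91. These were the only summits of the gene above 3 in any replicate. The others ranged from 0.599 to 2.20 in the optimal list. The strongest outside promoters were at positions 14012745, 13999725 and 14018144, and the promoter summit was at 13983689.

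CG32264 encodes a protein whose vertebrate relatives, the Phactr proteins, bind actin and protein phosphatase 1. It covers chr3L:3714826-3806459 on the minus strand. Its 9 summits all lay in introns of the upstream 45.7 kb, and the 45.9 kb downstream of the last held none. The strongest had 2.61, 2.73 and 2.98 in replicates 1, 2 and 3, and only 3 of the 9 stood above the list median in the optimal list. These 3 were at positions 3785200, 3771712 and 3802894, with optimal relative signals of 2.85, 1.23 and 1.21.

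Ten-a encodes a teneurin, a transmembrane adhesion protein of synapses, and covers chrX:12043698-12335214 on the plus strand. Its 11 summits fell into 2 groups separated by 117.8 kb. The upstream group of 3 lay inside the non-coding gene lncRNA:CR43960, which shares the start of Ten-a. The downstream group of 8 lay between 158.7 and 205.3 kb from the 5′ end. All were weak, and in the optimal list only 1, at position 12202402, exceeded the list median, with relative signals of 1.43, 1.39 and 1.33 in replicates 1, 2 and 3. A summit 27 bp from a start of Ten-a rested on replicate 1, with 1.60 there and 0.375 and 0.390 in replicates 2 and 3. It was at position 12203825, and the next strongest outside promoters were at 12222996 and 12242581, with 0.916 and 0.883 in the optimal list.

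CG1677 covers chrX:7281089-7405797 on the minus strand, and all its summits lay among other genes. A single stretch of 72.5 kb between exons of CG1677 held all 19 summits. The upstream 67.07 kb of CG1677 had none. The body holds 13 smaller protein-coding genes, and for each of the 19 summits the nearest start belonged to one of those 13. No summit lay within 5 kb of a start of CG1677, where the closest was 5825 bp away. The strongest stood 280 bp upstream of the start of CBP, a calcium-binding protein gene, with relative signals of 3.99, 5.05 and 4.62 in replicates 1, 2 and 3. The next lay inside Dok, an adaptor protein gene, with 3.28, 3.03 and 3.51. Upstream of brk, which encodes a repressor of Dpp target genes, 5 summits lay at 581, 785, 2015, 5408 and 6258 bp from its start. The strongest of those 5 was at 785 bp, with 1.87, 2.60 and 2.17 in the replicates. A promoter summit stood between Atg5 and Dok, with 0.687, 0.767 and 0.854. A further 5 summits had unc-119 as the nearest start. The promoter summit of CBP was at position 7337072, and the 3 strongest outside promoters were at 7325009, 7336324 and 7307154, with 3.30, 2.61 and 2.29 in the optimal list.

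CG12535 covers chrX:3387944-3448943 on the minus strand, and the nearest start of its 9 summits was again never its own. The nearest coding start was that of CG14269, a gene lying inside it, for 5 summits and that of Myc, outside it, for the 4 summits furthest downstream. Those 4 lay 22392 to 30481 bp from the start of Myc, which encodes a transcription factor of growth. The strongest of the 9 had relative signals of 1.52, 2.08 and 1.51 in replicates 1, 2 and 3. Most were weak, and only 2 stood above the list median in the optimal list. The 3 strongest were at positions 3425171, 3414607 and 3433138, with 1.77, 1.00 and 0.922 there.

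**Figure D3:**
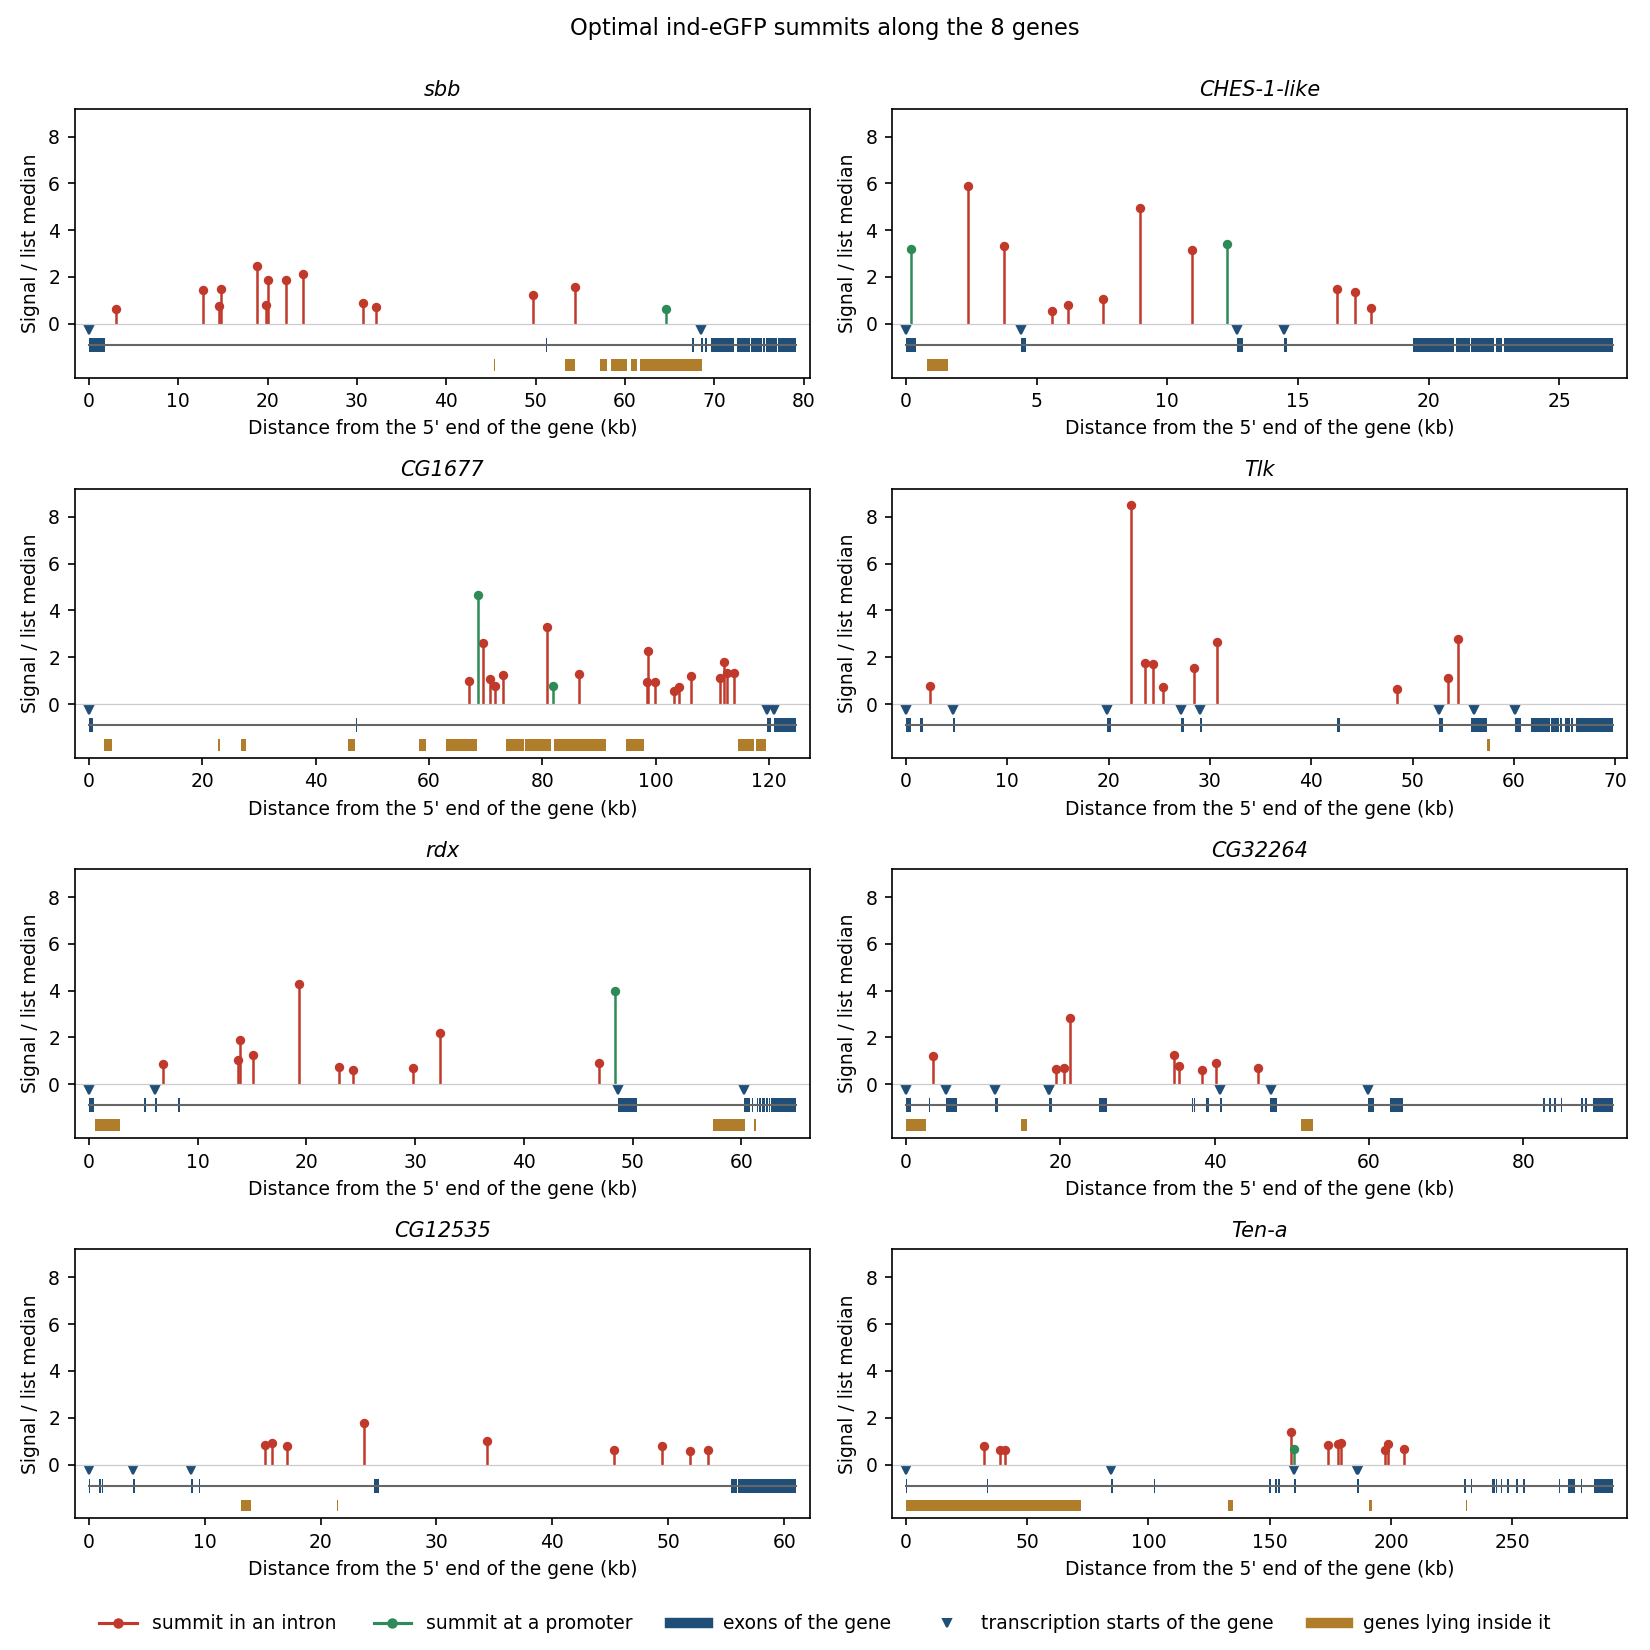
Position of each optimal summit along the 8 genes, in kb from the 5′ end of the gene (horizontal axis), with its relative signal (vertical axis, signal over list median). Red stems are intron summits and green stems promoter summits; below them stand exons and starts of the gene in blue and genes inside it in brown. The 19 summits of CG1677 all lie beyond 67.07 kb among brown genes, and the tallest stem, at 8.50, is in Tlk.

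Own starts were seldom covered. Of the 37 distinct starts of the 8 genes, 4 had a summit within 500 bp, 2 in CHES-1-like and 1 each in rdx and Ten-a. Of all 19630 starts of protein-coding genes, 4309 had one, which is 22%. The choice of genes by summits outside promoters does not use own starts directly but is not independent of them. Of the 88 summits outside promoters, 50 had a start of the gene itself as the nearest and 38 that of another gene. The median distance to the nearest start was 3071 bp, against 2604 bp for the other 2929 optimal summits outside promoters. Inside the 8 genes lay 47 smaller genes, 36 of them coding, and 7 summits fell within those. Of 17 annotated transposable elements, 2 held a summit.

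Summits of the 8 genes came in tight groups. The median spacing between neighbours in the same gene was 1871 bp over 87 spacings, against 8220 bp between neighbours in the whole list and 5058 bp in the other long genes. Spacings under 1000 bp made up 21.8%, against 11.4% in the whole list. Closer spacing goes with the higher counts by which the genes were picked. In contrast, 13 spacings exceeded 10 kb, and the widest was the gap in Ten-a. CG1677 had the closest median, 1299 bp, and Ten-a the widest, 5190 bp. The smallest spacing was 199 bp, which was also the smallest in the whole list. The spacings of 210 bp or less numbered 4 of 87 in the 8 genes and 213 of 5803 in the list, a small share in both. In each of the 4 pairs, 1 of them upstream of brk, the called peak intervals overlapped. They were still counted as separate summits.

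The closest pair, in an intron of rdx, follows with the same marks, as 201 bp around each summit.
rdx, left summit (chr3R:14018044-14018244): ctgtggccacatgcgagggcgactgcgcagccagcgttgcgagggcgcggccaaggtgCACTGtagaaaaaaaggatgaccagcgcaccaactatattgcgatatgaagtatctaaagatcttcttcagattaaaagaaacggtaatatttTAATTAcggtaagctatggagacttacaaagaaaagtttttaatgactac
rdx, right summit (chr3R:14018243-14018443): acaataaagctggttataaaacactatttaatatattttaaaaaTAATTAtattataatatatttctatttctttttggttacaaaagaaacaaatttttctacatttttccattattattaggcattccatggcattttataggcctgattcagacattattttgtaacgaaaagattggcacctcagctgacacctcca
The left window held 1 CAGTG and 1 TAATTA and had 56.2% A+T, while the right held 1 TAATTA and had 74.1% A+T. Relative signals of the left summit were 1.85, 1.66 and 2.11 in replicates 1, 2 and 3. Those of the right summit were 0.560, 0.689 and 1.08. The left was higher in every replicate.

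Signal varied widely between the summits of the 8 genes. The 88 summits outside promoters had a median relative signal of 0.992 in the optimal list, with 1.05, 0.929 and 0.997 in replicates 1, 2 and 3, or 0.991 ± 0.0586 (SD, n = 3). The other optimal summits outside promoters had a median of 0.895, and 0.900 ± 0.0213 over the replicates (SD, n = 3). Replicate 2 brought both medians closest, with 0.929 in the 8 genes and 0.917 elsewhere. Above the list median were 44 of the 88, against 42.7% of the others. The strongest signal outside the 8 genes and outside promoters was 19.8, so the summit in Tlk was not the top of the list. By gene, the median outside promoters ran from 0.785 in CG12535 to 1.64 in Tlk.

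**Figure D4:**
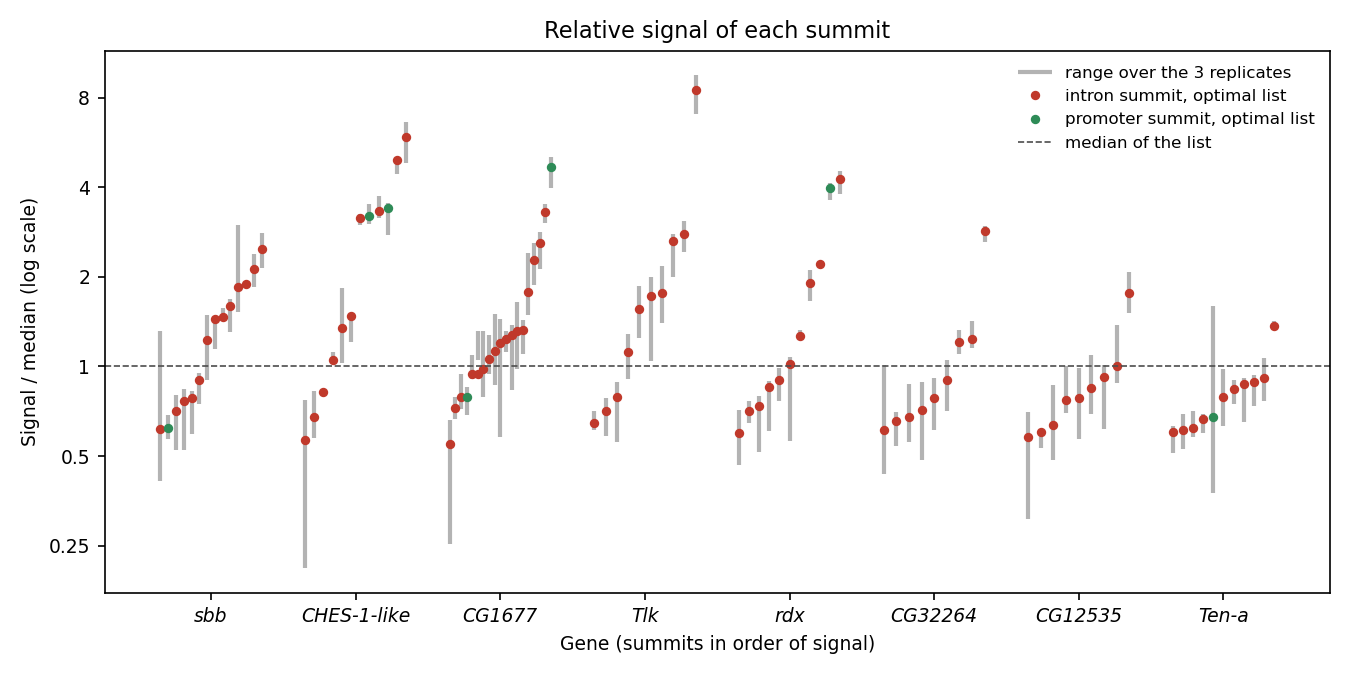
Relative signal of each of the 95 summits (vertical axis, log scale) by gene (horizontal axis), in order of signal within a gene. Points give the optimal list, grey bars the range over the 3 replicates and the dashed line the list median of 1; the points run from 0.550 to 8.50, and CG12535 and Ten-a lie mostly under the line.

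All 3 replicates held 72 of the 95 summits, or 75.8%, against 70.1% of the whole optimal list. A further 17 were in 2 replicates and 6 in 1, and no summit was in none. Outside promoters alone, all 3 replicates held 67 of the 88 summits, or 76.1%. The share was 66.0% for the other optimal summits outside promoters and 67.9% for those of them in introns. Replicate 1 held 77 of the 95, or 81.1%, against 80.8% of the whole list. Replicate 2 held 88, or 92.6%, against 89.3%, and replicate 3 held 91, or 95.8%, against 91.8%. By replicate, these shares were close to those of the whole list, of which only 51.9% lay outside promoters. CG1677 had 17 of its 19 in all 3, CHES-1-like 10 of 12, rdx 9 of 11 and Tlk 8 of 10. Close summits could be matched to the same replicate peak, since a match could lie up to 200 bp to either side. All 4 pairs spaced 210 bp or less are such cases, among them the 2 summits of rdx that lie 199 bp apart. The weaker summit of this rdx pair, with 0.560 in replicate 1, may have counted as found there through its neighbour. In sbb it was 9 of 14, in Ten-a 7 of 11, and in CG32264 and CG12535 it was 6 of 9 each. The optimal list was itself derived from these replicates, so none of these shares is independent of it.

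The DNA at the summits was richer in A and T than its surroundings. Within 100 bp of the 88 summits outside promoters, A+T was 66.6%, against 60.8% in equally wide windows centred 1000 bp away on either side. The difference of 5.76 percentage points compares with 4.97, 5.48 and 5.65 in replicates 1, 2 and 3. It was 5.95 points at the other summits outside promoters, where A+T was 65.1% at the summit and 59.2% beside it. The rise in the 8 genes was thus close to that elsewhere. The gene bodies as a whole had 59.7% A+T and the arms 57.9%. By gene, the rise was smallest in sbb, at 1.70 points, and widest in Ten-a, at 8.53 points.

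Short words within 100 bp of the summits were counted regardless of strand, with 10 words of 6 letters listed at the outset and CAGTG added later. TAATTA occurred at 21 of the 88 summits, or 23.9%, against 16.5% of flanking windows. The share at the other summits outside promoters was 17.5%, and 14.8% of their flanks. Replicates 1, 2 and 3 gave 26.0%, 22.5% and 22.0% in the 8 genes. Of 4025 windows of the same length tiled over the gene bodies, 13.3% held TAATTA. By gene, TAATTA was at 5 of 9 summits in CG32264, at 4 of 10 in rdx and in Ten-a, and at 1 of 17 in CG1677. AAAAAA, a plain run of A, was at 68.2% of the summits and 46.0% of flanks, against 50.1% and 36.6% for the other summits, and in 43.5% of tiled windows. CACACA was rarer at the summits than beside them, at 10.2% and 18.2%, and elsewhere at 14.9% and 18.8%. GAGAGA occurred at 10.2% of summits and of flanks alike, and at 11.6% of the other summits. ATGCAT was at 12.5% of summits and 7.39% of flanks, and at 8.13% of the other summits. TTTATG was at 23.9% of summits and 26.7% of flanks, and at 23.97% of the other summits. In replicates 1, 2 and 3 TTTATG was at 29.9%, 31.5% and 26.4% of the summits in the 8 genes, each above the share in the optimal list. Zelda's CAGGTA was at 2.27% of the summits and 2.84% of flanks, and at 4.92% of the other summits. The word GGTCAC was at 3.41% of the summits and 2.84% of flanks, and at 3.41% of the other summits. CGATAA was at 6.82% of the summits and 10.2% of flanks, and at 7.10% of the other summits. The E-box CAGCTG was at 3.41% of the summits and 5.11% of flanks, and at 5.53% of the other summits. The words can overlap in a run of A and T, and a match is a description of the DNA and not a binding site.

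CAGTG was also followed by its distance from the summit. The word was added with earlier results of these data known, so its counts are a description and not a test. It lay within 100 bp of 46 of the 88 summits, or 52.3%, against 27.3% of flanking windows and 27.2% of tiled windows. In replicates 1, 2 and 3 it was at 46.8%, 46.1% and 48.4% of the summits in the 8 genes, each below the share in the optimal list. The other summits outside promoters gave 54.2% and their flanks 29.7%. At least 1 copy within 100 bp was present at 3 of 9 summits in CG12535 and at 8 of 10 in Ten-a. The word was sparse at the summit itself and denser on its sides. Within 40 bp it occurred at 1.40 per kb, from 10 copies, and at 61 to 120 bp at 4.83 per kb, from 51 copies. At 201 to 300 bp it was down to 1.93 per kb. A+T at these distances was 70.1%, 61.6% and 55.9%, and whether base composition accounts for the densities was not tested. The other summits gave 2.33, 4.87 and 2.01 per kb over the same distances. CAGTG stood on both sides, 31 to 150 bp out, at 17 of the 88 summits, or 19.3%, against 3.41% of the flanking centres. At the other summits it was 19.9%, and 3.64% of their flanking centres.

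**Figure D5:**
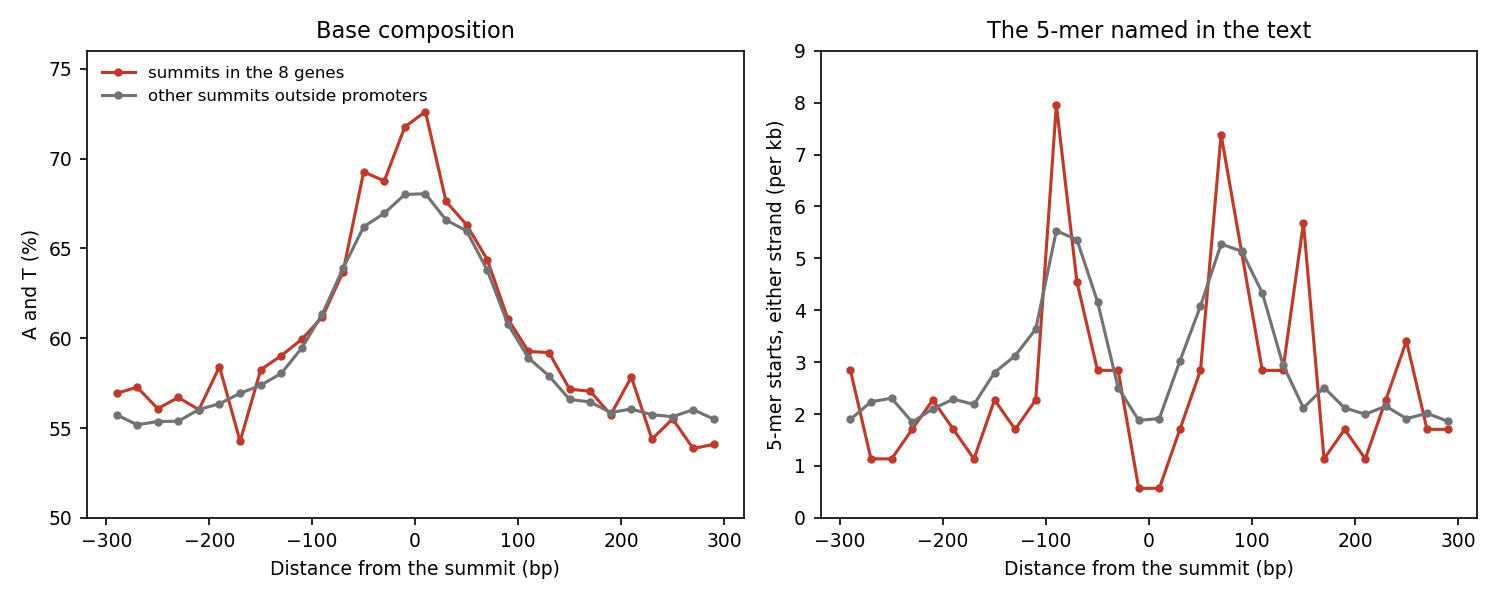
Left, percent A and T in bins of 20 bp by distance from the summit; right, density of the CAGTG 5-mer on either strand per kb in the same bins. Red lines are the 88 summits outside promoters in the 8 genes and grey lines the other 2929. A+T peaks at the summit, whereas the 5-mer dips there and peaks on both sides. In the 8 genes the highest bins reach 7.955 and 7.386 per kb, and the density over 61 to 120 bp is 4.83 per kb.

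The arrangement can be read in the strongest of the remaining summits with CAGTG on both sides, given here as 299 bp around the summit and chosen after their values were seen.
CHES-1-like, first (chrX:7700261-7700559): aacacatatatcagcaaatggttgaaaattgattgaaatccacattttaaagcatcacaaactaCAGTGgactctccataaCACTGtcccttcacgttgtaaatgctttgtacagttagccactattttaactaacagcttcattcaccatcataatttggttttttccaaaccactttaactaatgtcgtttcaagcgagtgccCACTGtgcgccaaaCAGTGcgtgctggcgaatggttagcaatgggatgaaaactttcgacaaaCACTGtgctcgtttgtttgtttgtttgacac
CHES-1-like, second (chrX:7698282-7698580): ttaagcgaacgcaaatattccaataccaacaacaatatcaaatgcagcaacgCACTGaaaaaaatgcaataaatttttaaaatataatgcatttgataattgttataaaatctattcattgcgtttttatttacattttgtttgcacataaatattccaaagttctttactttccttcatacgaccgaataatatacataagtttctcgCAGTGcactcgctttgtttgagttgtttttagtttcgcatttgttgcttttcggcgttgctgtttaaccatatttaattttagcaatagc
Tlk (chrX:3750569-3750867): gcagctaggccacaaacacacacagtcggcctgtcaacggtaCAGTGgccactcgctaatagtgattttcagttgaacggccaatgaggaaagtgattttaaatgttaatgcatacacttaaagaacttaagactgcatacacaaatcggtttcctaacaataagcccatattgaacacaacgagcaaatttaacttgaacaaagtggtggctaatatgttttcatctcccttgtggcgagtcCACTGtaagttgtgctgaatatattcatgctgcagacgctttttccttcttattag
The first CHES-1-like window held 5 copies, 2 to the left and 3 to the right of its summit, which had relative signals of 4.44, 4.97 and 5.03 in replicates 1, 2 and 3. The other windows held 1 copy on each side. The A+T share of the 3 windows was 60.9%, 70.2% and 59.2% in the order shown.

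Genes that work with the 8, or belong to their families, were examined as a list of 27. A summit in the body was present in 8 of the 27, or 29.6%, against 13.8% of all protein-coding genes. Nothing is read from this small list beyond the count. Of the Hedgehog and Cullin-3 genes beside rdx, hh, the ligand, held 1 summit and ptc, the receptor, held 2, while Cul3, Roc1a, ci, Su(fu) and smo held none. The hh summit was weak, with a relative signal of 0.573, and replicates 1, 2 and 3 held 0, 0 and 1 in hh. Both summits of ptc were found in all 3 replicates. Of the partners of sbb, the corepressor gene Gug (Atrophin) held 3, the strongest with a relative signal of 5.71, and all 3 were found in every replicate. The genes tll and Kr, also listed with sbb, held none. Of 9 forkhead genes beside CHES-1-like, foxo held 2 and jumu 3. Of the actin and phosphatase genes beside CG32264, bs, the fly serum response factor, held 3, its cofactor Mrtf held 1 and flw, a phosphatase subunit gene, held 1. Ten-m, the other teneurin gene, held none over 114.8 kb, against 11 in Ten-a. The histone chaperone gene asf1, whose product is a substrate of Tlk, held none. No gene of the list held more than 3 summits.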

How the data were processed

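The deposited notes say that the authors called relaxed peaks per replicate and on pooled reads, each against a control, and derived the optimal list by the irreproducible discovery rate. The signal of each peak is the authors' own value, as deposited. The authors' deposited q-value is on the −log10 scale, and the summit offset in the deposited lists gave the position. The sources used here name no aligner or peak caller. Read depth is unknown, so no interval or floor is given. The control, the alignments and the dm3 lists were not used here.

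Summits of the dm6 lists were joined to the dm6 reference sequence and the Ensembl BDGP6 annotation, leaving out transposable elements as genes. A summit belonged to a gene when it lay within its annotated body. To be found in a replicate, it needed a summit within 200 bp among the strongest 5809 peaks there. Close summits could share such a match. Outside promoters, exonic classes took precedence over introns, which include exons of non-coding genes. Flanks were equally wide windows centred 1000 bp away. Counting, matching and promoter calls were tested on simulated data. The tools were matplotlib 3.10.9, scipy 1.17.1, pandas 2.3.3 and numpy 2.4.6 under Python 3.11.15.

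There is 1 group, so no test between groups was made and no p-value is given. Where an SD is given, it is over the 3 replicates and measures only the spread between these samples. The members, the lists of genes and words, and the rules were chosen with earlier results of these data known. Named were, per gene, the 3 strongest summits outside promoters and the strongest at a promoter, nested genes with a promoter summit, the 8 other genes with the most summits outside promoters (15 with ties), the gene closest in length to each, and listed family genes with a summit. Other summits and genes named were chosen after their values were seen. Alternatives tried were the strongest 50% of the list, the pooled list at a −log10 q-value of at least 2, summits found in all replicates or in every pair, promoter windows of 250 and 1000 bp, bodies with 2000 bp upstream, no nested genes, no sbb, windows of 50 bp and an overlap of 50%.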

Additional observations from a re-analysis of the deposited data

How the results depend on the processing

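The count of 95 summits fell outside 1.5 times only in the strongest 50% of the list, at 48, where the density was 0.0593 per kb, the median spacing 2196 bp, TAATTA at 18.2% and the share found in all 3 replicates 97.9%. In the pooled list, which holds more and weaker peaks, density was 0.168 per kb, the median relative signal 1.13, the A+T rise 4.96 points and the share found in all 3 replicates 53.7%. Among summits found in all 3 replicates, density was 0.0889 per kb, spacing 2092 bp, the A+T rise 6.41 points and TAATTA 26.9%. Without summits in nested genes density was 0.109 per kb, and without sbb the A+T rise was 6.46 points. Promoter windows of 1000 and 250 bp put 81.1% and 96.8% of summits outside promoters, and the 1000 bp window gave a median signal of 0.922. Windows of 50 bp gave an A+T rise of 7.97 points and TAATTA at 14.8%. Requiring intervals to overlap by 50% of both left 53.7% found in all 3 replicates.

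Each replicate was also left out in turn, and only optimal summits found in both remaining replicates were kept, so the count could only fall. This kept 73 to 86 summits, with 0.0902 to 0.106 per kb and spacing of 1966 to 2161 bp. The A+T rise was 5.83 to 6.40 points and TAATTA was at 25% to 26.5%. As a share of the 95 summits, those kept were 76.8% to 90.5%, the highest without replicate 1. Median signal stayed at 0.950 to 0.999 and the share outside promoters at 93.0% to 93.2%. By gene, the strongest 50% left 1 summit in Ten-a, 2 in CG12535 and 3 in CG32264, against 9 in CHES-1-like, 12 in CG1677, 8 in sbb, 7 in Tlk and 6 in rdx. The pooled list gave 21 in CG1677, 20 in Ten-a, 19 in sbb, 17 in Tlk and in CG12535, 15 in CG32264, 14 in rdx and 13 in CHES-1-like. Ten-a kept 7 summits found in both others without replicate 2 or without replicate 3, and sbb kept 9 without replicate 3. The causes were not tested. No paired analysis was possible because all samples form 1 group.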
